A study of Mus musculus with 7 samples.

Results

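The interferon-induced transmembrane genes of the mouse, Ifitm1, Ifitm2, Ifitm3 and Ifitm6, were followed across myeloid cells of tumor-bearing and naive animals. They were picked by gene name, with their values in these cells already known, and make up 4 of the 25127 genes counted. Levels in each library and each cluster of cells are therefore descriptions. The cells came from C57/Bl6 mice and were enriched for CD11b, an integrin chain on monocytes, macrophages, neutrophils and some dendritic cells. In tumor-bearing mice, which carried LLC tumors (Lewis lung carcinoma, a transplantable mouse line) at day 14, the tumor tissue was taken along with blood, bone marrow and spleen. Naive mice gave the last 3 tissues. The labels name no transgene, knockout or drug in either state, and do not say how many animals a library holds or which tissues share an animal. Each of the 7 groups was 1 single-cell library in which RNA and surface antibody tags were read together, so no difference has a replicate check and none was tested.

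Ifitm proteins are short membrane proteins that stiffen cell and endosome membranes and so hinder the entry of many enveloped viruses. Ifitm3 works mainly in endosomes and is the best studied restriction factor of the family, Ifitm2 is its close relative, and Ifitm1 lies more at the cell surface. Interferons switch the genes on through promoter elements bound by STAT and IRF factors, and myeloid cells can also carry them without infection.

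The 4 genes lie together on chromosome 7 within 63.1 kb (GRCm38, GENCODE M21 annotation). Ifitm2 lies at chr7:140954837-140955987 on the minus strand, Ifitm1 at chr7:140967221-140969825 on the plus strand, Ifitm3 at chr7:141009586-141010770 and Ifitm6 at chr7:141015699-141017924, both on the minus strand. The gene model Gm45717, annotated as protein coding, overlaps Ifitm2 on the same strand. The stretch of 250 bases before each RefSeq start site (GRCm38.p6) is given because the members differed in level and in response. It is written 5′ to 3′ on the strand of the gene, with capitals for any match to an interferon-stimulated response element core (GAAA, any 2 bases, GAAA) or a STAT site core (TTCNNNGAA), both searched on both strands.
Ifitm1, chr7:140967826-140968075, plus strand: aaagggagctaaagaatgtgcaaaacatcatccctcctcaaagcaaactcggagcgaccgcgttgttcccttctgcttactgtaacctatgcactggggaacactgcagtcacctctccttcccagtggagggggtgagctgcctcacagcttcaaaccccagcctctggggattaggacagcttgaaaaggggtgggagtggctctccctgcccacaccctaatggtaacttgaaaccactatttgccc
Ifitm2, chr7:140955962-140956211, minus strand: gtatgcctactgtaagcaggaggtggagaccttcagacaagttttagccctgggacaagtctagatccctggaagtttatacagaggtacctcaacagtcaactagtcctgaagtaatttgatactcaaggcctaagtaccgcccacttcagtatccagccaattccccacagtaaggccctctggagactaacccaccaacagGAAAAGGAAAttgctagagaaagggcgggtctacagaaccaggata
Ifitm3, chr7:141010745-141010994, minus strand: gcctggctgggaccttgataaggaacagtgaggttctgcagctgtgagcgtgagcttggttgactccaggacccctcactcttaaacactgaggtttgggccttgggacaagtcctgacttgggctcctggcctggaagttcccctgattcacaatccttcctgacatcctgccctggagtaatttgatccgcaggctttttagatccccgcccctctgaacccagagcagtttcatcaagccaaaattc
Ifitm3 after its start site, chr7:141010716-141010742, minus strand: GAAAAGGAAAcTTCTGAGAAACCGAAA
Ifitm6, chr7:141016893-141017142, minus strand: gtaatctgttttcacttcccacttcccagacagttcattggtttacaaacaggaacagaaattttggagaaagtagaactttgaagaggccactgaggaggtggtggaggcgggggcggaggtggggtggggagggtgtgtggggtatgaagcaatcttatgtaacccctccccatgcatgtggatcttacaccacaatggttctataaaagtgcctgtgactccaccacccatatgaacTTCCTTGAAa

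In windows from 250 bases before to 50 bases after the start, Ifitm3 held 2 response element matches, GAAAAGGAAA and GAAACCGAAA, and 1 STAT site match, TTCTGAGAA, which overlaps the second of them. Ifitm2 held 1 response element match, Ifitm6 held 1 STAT site match, and Ifitm1 held neither set of letters in this window. Of 32851 RefSeq windows of the same kind, 3.44% held the response element core, 8.30% the STAT site core and 0.454% both. A match of letters is a description and not a bound site. The annotated genes of Ifitm1 and Ifitm6 also begin outside these windows, so other start sites were not searched.

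The members share sequence near their 3′ ends, where the libraries were counted. Of all 50-base words in the last 500 bases of their transcripts, 41.9% of those of Ifitm2, 14.0% of those of Ifitm3 and 11.8% of those of Ifitm1 also occur in transcripts of another gene. Those of Ifitm6 showed 0 such words. Most of the shared words of Ifitm2 lie in gene models other than the members, since 20 of 189 were shared with Ifitm3 and 0 with Ifitm1. Those other gene models were not analysed here. How reads with more than 1 match were counted is not given in the sources used here, so what the shared sequence does to the levels of Ifitm1, Ifitm2 and Ifitm3 was not tested.

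Counts were held for 4290 cells, with 57 cells in tumor-bearing bone marrow at the low end and 1917 in tumor tissue at the high end. Library totals ran from 617821 to 20844058 unique molecular identifiers (UMIs, counted molecules), and median UMIs per cell ran from 8841 to 12445. The 16 clusters with counts are the authors' own, and 9 of them drew over 90% of their cells from tumor tissue. Only 2 cell barcodes occurred in more than 1 library. Summed levels of 12 neutrophil markers were 377 CPM (UMIs per 1000000 UMIs of the library) in tumor tissue, 4123 CPM in tumor-bearing blood against 1494 CPM in naive blood, 8412 CPM in tumor-bearing bone marrow against 9205 CPM in naive bone marrow, and 4902 CPM in tumor-bearing spleen against 2892 CPM in naive spleen. One cell with 72 of the 176 Ifitm1 UMIs of naive spleen, and 1 cell with 14 of the 26 Ifitm1 UMIs of tumor-bearing bone marrow, stood apart from the rest, and the Ifitm1 levels, family shares and folds that rest on them are given with and without them.

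The summed level of the family was similar in all libraries while its make-up differed. Summed over the 4 genes, the level was 9157 CPM in tumor tissue, 8729 CPM in tumor-bearing blood against 9418 CPM in naive blood, 9425 CPM in tumor-bearing bone marrow against 9132 CPM in naive bone marrow, and 8703 CPM in tumor-bearing spleen against 9347 CPM in naive spleen. Ifitm3 made up between 66.5% and 74.7% of these molecules in every library and ranked between 8 and 12 among all genes by level. Ifitm1 made up 4.68% of the family in tumor tissue, 1.06% in tumor-bearing blood against 0.157% in naive blood, 0.447% in tumor-bearing bone marrow against 0.121% in naive bone marrow, and 0.993% in tumor-bearing spleen against 0.426% in naive spleen. With the cell with most Ifitm1 left out of each library, its share was 0.213% in tumor-bearing bone marrow against 0.108% in naive bone marrow, and 0.941% in tumor-bearing spleen against 0.253% in naive spleen. Molecules are counted once at the 3′ end, so levels of different genes were not divided by length. What the shared 3′ sequence, which differs between members, does to these shares was not tested.

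**Figure D1:**
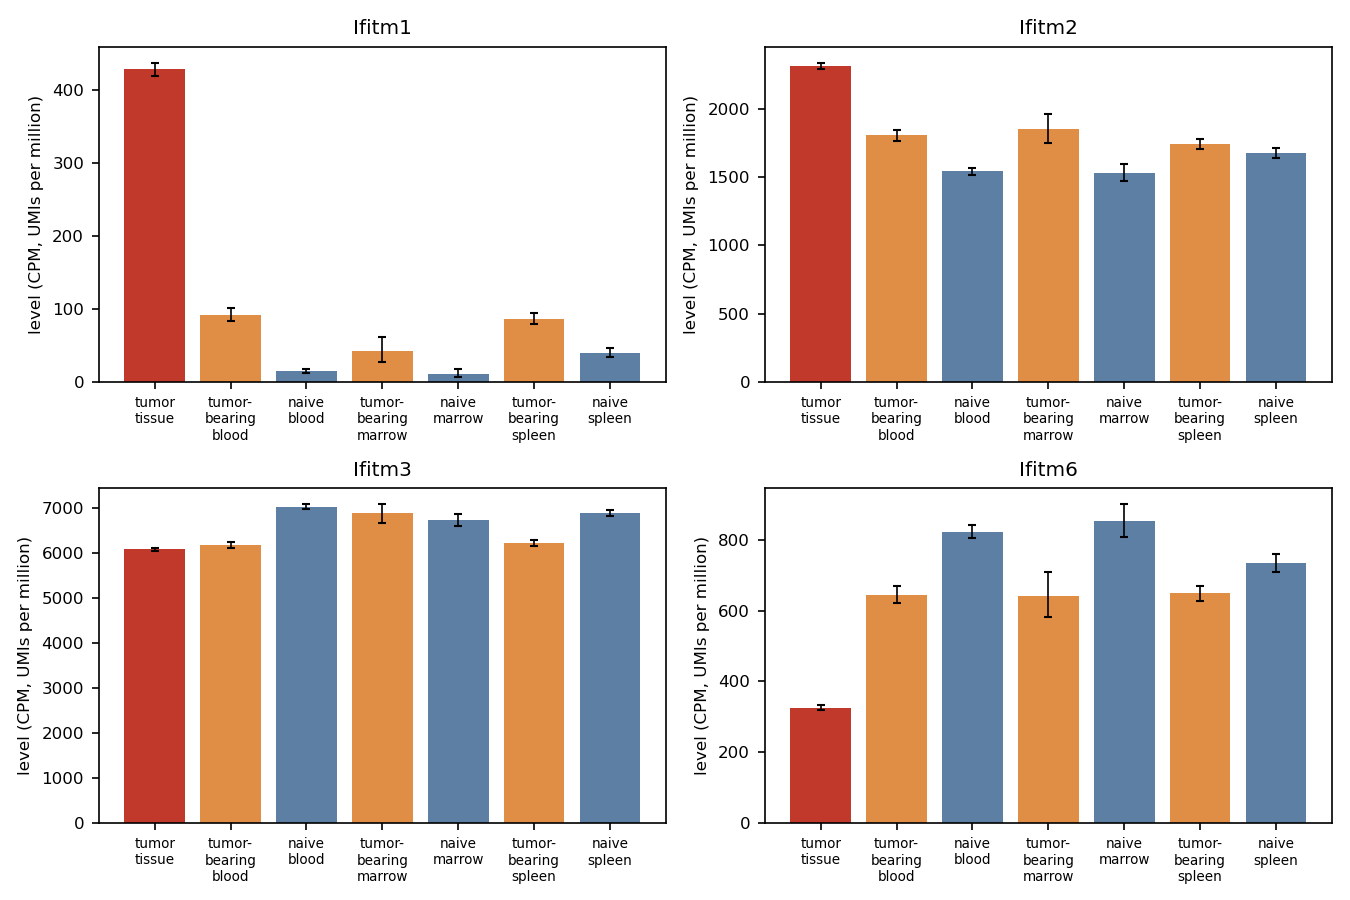
Level of each Ifitm gene (CPM, linear axes from 0) in the 7 libraries, with tumor tissue in red, the other tumor-bearing libraries in orange and naive libraries in blue; error bars are exact 95% Poisson intervals, which cover counting error only. Ifitm1 stands at 428 CPM in tumor tissue and at 11.0 CPM in naive bone marrow, while Ifitm3 lies between 6087 and 7038 CPM in all libraries.

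Ifitm1, the member that lies more at the cell surface, was higher in tumor-bearing than in naive mice in all 3 tissues. Its level was 92.2 CPM in tumor-bearing blood (95% interval 83.5 to 101) and 14.8 CPM in naive blood (12.5 to 17.5). In bone marrow it was 42.1 CPM in tumor-bearing (27.5 to 61.7) and 11.0 CPM in naive mice (6.43 to 17.7). In spleen it was 86.4 CPM in tumor-bearing (79.0 to 94.3) and 39.8 CPM in naive mice (34.1 to 46.1). The intervals of the 2 states did not overlap in any tissue, but in bone marrow this rested on 1 cell. With the cell with most Ifitm1 left out of each library, the level was 19.8 CPM in tumor-bearing bone marrow (10.2 to 34.6) and 9.81 CPM in naive bone marrow (5.49 to 16.18), and the intervals overlapped. In spleen it was then 81.8 CPM in tumor-bearing (74.6 to 89.6) and 23.6 CPM in naive mice (19.3 to 28.6), still apart. In the order of levels over the 7 libraries, tumor tissue stood first at 428 CPM, tumor-bearing blood and spleen followed with overlapping intervals, tumor-bearing bone marrow overlapped naive spleen, and naive blood overlapped naive bone marrow. Without those cells tumor-bearing bone marrow overlapped all 3 naive libraries. The highest level was 38.8-fold the lowest.

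The fold was 6.22 in blood, 3.81 in bone marrow (1.99 to 7.49) and 2.17 in spleen (1.82 to 2.59), so 1 of 4 members was 2-fold or more higher in each tissue and 0 were 2-fold or more lower. Among all measured genes (at least 30 UMIs in both libraries together and 20 CPM in one), 0.566% in blood, 1.34% in bone marrow and 0.332% in spleen were that much higher, and 0.132%, 1.89% and 0.0553% were that much lower. In either direction these came to 0.698%, 3.23% and 0.387%. The members were chosen with these folds known, so nothing is read from the comparison with the background. Without the cell that held 14 of its 26 UMIs, the bone marrow fold of Ifitm1 was 1.80, under 2-fold. Without the cell that held 72 of the 176 UMIs of naive spleen, the spleen fold was 3.66. That marrow cell was the only one of cluster 10 in the library, a cluster with 99.5% of its cells from tumor tissue.

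**Figure D2:**
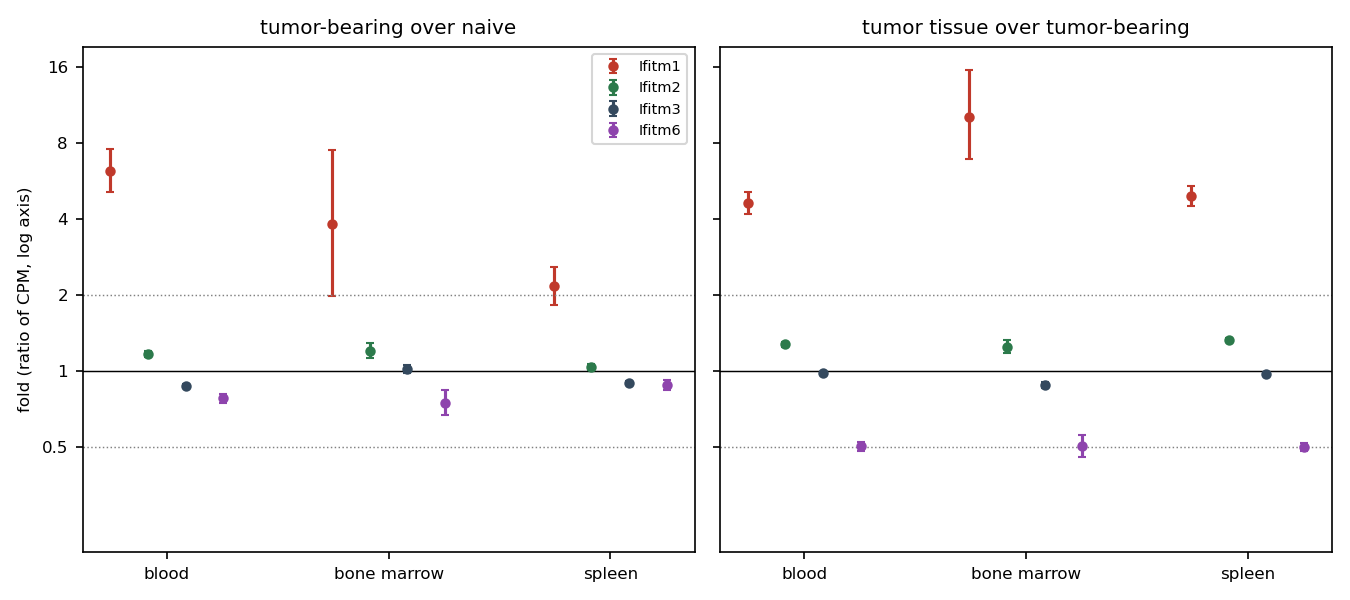
Fold of each Ifitm gene (ratio of CPM, log axis) for tumor-bearing over naive libraries on the left and tumor tissue over tumor-bearing libraries on the right; error bars are exact 95% intervals of counting error and dotted lines mark 2-fold up and down. Ifitm1 lies above the upper line in all 6 comparisons, and Ifitm6 lies under 1 in all 6.

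More cells had Ifitm1 in tumor-bearing mice, and more had several molecules of it. A UMI was present in 51.9% of cells in tumor tissue, 25.1% in tumor-bearing blood against 8.48% in naive blood, 12.3% in tumor-bearing bone marrow against 9.80% in naive bone marrow, and 31.4% in tumor-bearing spleen against 10.6% in naive spleen. With every cell thinned to 5000 UMIs and shallower cells left out (190 in tumor tissue and between 1 and 14 in the other libraries), the shares were 42.4% in tumor tissue, 13.4% in tumor-bearing blood (95% Clopper-Pearson interval 9.99 to 17.5) against 4.74% in naive blood (3.37 to 6.45), and 19.8% in tumor-bearing spleen (16.6 to 23.4) against 5.45% in naive spleen (3.44 to 8.13). In bone marrow, 4 of 56 thinned cells of tumor-bearing mice and 6 of 145 of naive mice had a UMI, and the difference of 3.0 percentage points had an interval from -3.31 to 13.1, so a difference in share was not detectable at this depth. No cell class known to lack Ifitm1 was sampled to set a background from free RNA. The lowest share in a cluster with at least 50 thinned cells was 7.48%, in cluster 6, whose cells had a median of 12191 UMIs.

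At 5000 UMIs a cell, 2 or more Ifitm1 UMIs were found in 26.9% of cells in tumor tissue, 5.54% in tumor-bearing blood against 0.998% in naive blood, and 5.31% in tumor-bearing spleen against 2.23% in naive spleen. A count of 10 or more was found in 6.25% of cells in tumor tissue and in under 1% of cells in the other libraries. The tenth of cells with most Ifitm1 held 68.1% of its UMIs in tumor tissue, against 26.8% for Ifitm2, 23.5% for Ifitm3 and 39.3% for Ifitm6 in the same library. The median cell had 0 Ifitm1 UMIs in every library at this depth.

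**Figure D3:**
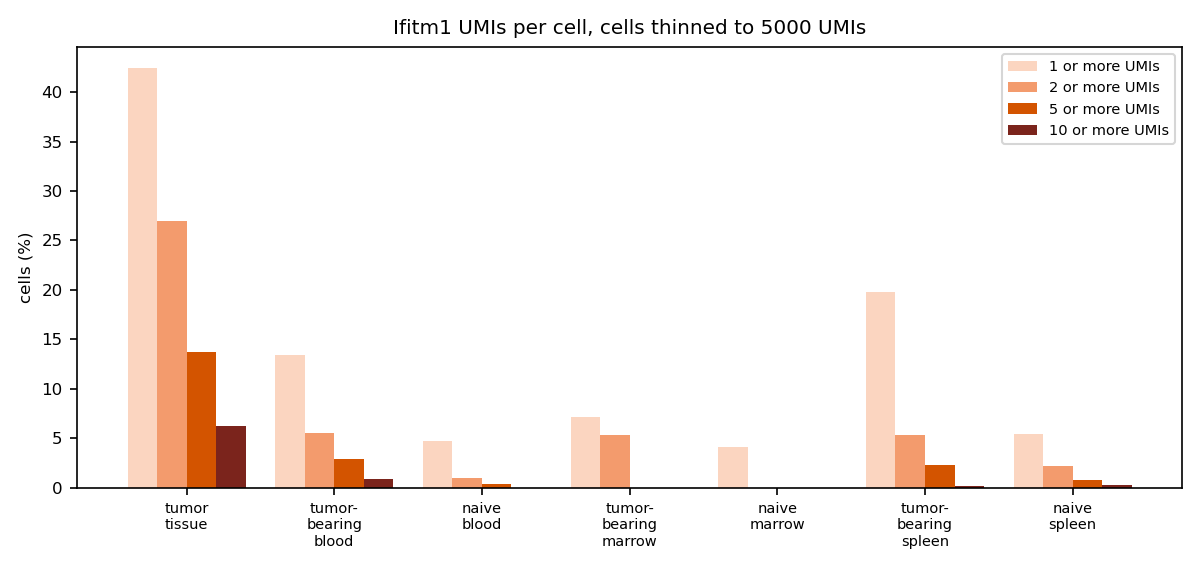
Share of cells (%, axis from 0) with at least 1, 2, 5 or 10 Ifitm1 UMIs in each library after thinning every cell to 5000 UMIs. Tumor tissue has 42.4% of cells with a UMI and 6.25% with 10 or more, against 4.74% and 0 in naive blood.

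The higher level in tumor-bearing mice was seen within clusters, which differ in cell state. In blood, Ifitm1 in cluster 0 was 72.6 CPM in tumor-bearing and 9.06 CPM in naive mice. In cluster 1 it was 49.7 CPM in tumor-bearing and 9.85 CPM in naive mice (fold 5.05, 2.92 to 9.02), and in cluster 2 it was 68.1 CPM in tumor-bearing and 26.0 CPM in naive mice (fold 2.61, 1.70 to 4.03). In cluster 4, which had the highest summed level of non-classical monocyte markers at 3320 CPM, it was 98.0 CPM in tumor-bearing and 17.6 CPM in naive mice. In cluster 6 the 41 UMIs of tumor-bearing mice and 11 of naive mice gave a fold of 11.0, which became 2.68 when the cell with most Ifitm1 was left out of each library. All 5 blood clusters with at least 20 cells in both states thus lay above 2-fold, with and without such cells. The share of all measured genes 2-fold or more higher was 1.09% in cluster 0, 0.926% in cluster 1, 1.52% in cluster 2, 1.07% in cluster 4 and 1.68% in cluster 6.

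In spleen, Ifitm1 was 2.46-fold higher in tumor-bearing than in naive mice in cluster 1 (1.65 to 3.77), 7.19-fold in cluster 2 (3.65 to 16.1), 6.39-fold in cluster 4 (3.69 to 11.9) and 8.27-fold in cluster 6 (3.01 to 31.7, from 43 and 4 UMIs). Of measured genes, 0.997% in cluster 1, 2.11% in cluster 2, 1.2% in cluster 4 and 1.67% in cluster 6 were that much higher. Cluster 0 went the other way at 74.5 CPM in tumor-bearing and 87.2 CPM in naive mice (fold 0.854), where 1.87% of measured genes were 2-fold or more higher, and it held the naive cell with 72 UMIs. Without the cell with most Ifitm1 in each library its fold was 3.31. A UMI was found in 28.4% of cluster 0 cells in tumor-bearing spleen and in 9.47% in naive spleen. In bone marrow, cluster 0 was the one cluster with at least 20 cells in both states, and its 4 UMIs in tumor-bearing and 9 UMIs in naive mice gave a fold of 0.949 (0.213 to 3.40), so the direction of the whole library was not seen there. Of measured genes in that cluster 1.67% were 2-fold or more higher.

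**Figure D4:**
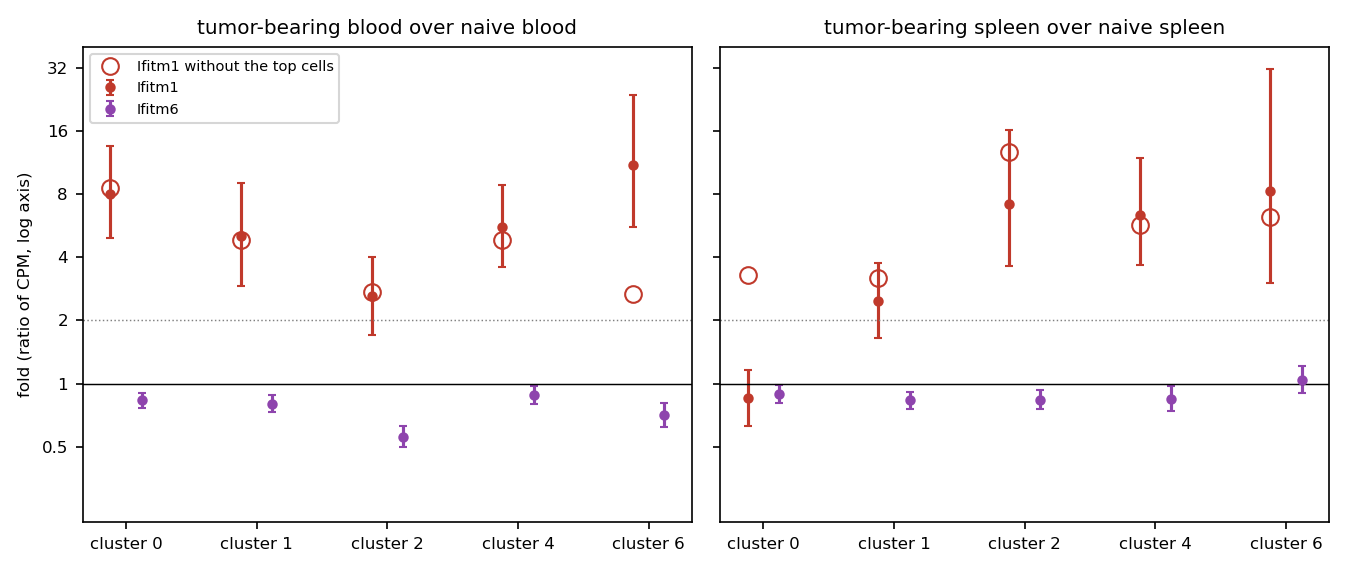
Fold of Ifitm1 and Ifitm6 (ratio of CPM, log axis) between tumor-bearing and naive blood and spleen within each cluster that had at least 20 cells in both; error bars are exact 95% intervals of counting error, and open circles are Ifitm1 without the cell with most of its UMIs in each library. Ifitm1 lies above 2-fold everywhere but in cluster 0 of spleen (0.854), whose open circle is at 3.31.

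Cells with neutrophil markers moved with the Ifitm1 result in blood. Cluster 12, in which the 12 neutrophil markers summed to 47016 CPM, made up 4.80% of cells in tumor-bearing blood and 1.35% in naive blood, and held 20.9% of the Ifitm1 UMIs in tumor-bearing and 11.0% in naive blood. Within it, Ifitm1 was 856 CPM in 17 cells of tumor-bearing blood (686 to 1056) and 165 CPM in 11 cells of naive blood (94.3 to 268). It was 287 CPM in 23 cells of tumor-bearing spleen and 229 CPM in 16 cells of naive spleen. The 14 cells of naive bone marrow had 0 Ifitm1 UMIs, which allows a level of up to 38.9 CPM by the limit of 3 UMIs and of 47.8 CPM by the exact 95% interval. Without cluster 12 the fold was 5.60 in blood, 3.67 in bone marrow and 2.31 in spleen, close to the folds of all cells.

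In tumor tissue Ifitm1 stood at 428 CPM (420 to 437), 4.65-fold the level of tumor-bearing blood (4.21 to 5.14), 10.2-fold that of tumor-bearing bone marrow (6.94 to 15.6) and 4.96-fold that of tumor-bearing spleen (4.53 to 5.44). Without the single marrow cell named above, the second of these was 21, with the top cell of tumor tissue left out as well. It was the 1 member of 4 past 2-fold higher in each comparison, where 10.9%, 12.2% and 10.7% of measured genes were that much higher and 9.44%, 12.1% and 12% that much lower, or 20.3%, 24.3% and 22.6% in either direction. The median log2 ratio of all measured genes was -0.13 against blood, -0.17 against bone marrow and -0.15 against spleen, and values are not shifted for it. Cluster 17, found in tumor tissue alone, made up 2.87% of its cells and held 19.6% of its Ifitm1 UMIs. Without cluster 17 the folds were 3.85, 8.43 and 4.11 in the same order.

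Ifitm1 varied most between clusters, from 17.1 CPM in cluster 16 to 2861 CPM in cluster 17 (2729 to 2998). Cluster 17 also had the highest summed level of conventional dendritic cell markers, 13800 CPM over 8 markers, and 8 of the 12 neutrophil markers were at 0 there. Ifitm1 was found in 80.0% of its 55 cells. The tumor clusters 7, 5, 10 and 8 followed at 580, 572, 441 and 365 CPM, then cluster 12 at 311 CPM and cluster 3 at 293 CPM. Clusters 0, 1, 2, 4, 6 and 16, shared by blood, bone marrow and spleen, lay between 17.1 and 56.5 CPM. They were under every cluster drawn mostly from tumor tissue, of which cluster 9 was the lowest at 146 CPM. Cluster 12, also shared by these tissues, was at 311 CPM, above cluster 3 and cluster 9. The values of the shared clusters pool tumor-bearing and naive cells. In cluster 4, Ifitm1 was 138 CPM in tumor-bearing spleen (112 to 169) and 21.6 CPM in naive spleen. The first of these overlapped cluster 9 of tumor tissue (129 to 165).

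Ifitm6, a less studied member with its own 3′ end, ran the other way. Its level was 326 CPM in tumor tissue (318 to 333). It was 645 CPM in tumor-bearing blood (622 to 669) and 823 CPM in naive blood (805 to 841), 643 CPM in tumor-bearing bone marrow (581 to 709) and 855 CPM in naive bone marrow (809 to 902), and 649 CPM in tumor-bearing spleen (628 to 670) and 736 CPM in naive spleen (711 to 762). The 3 naive libraries were all above the tumor-bearing ones, without overlap of intervals, and tumor tissue was below all others. The tumor-bearing levels of blood, bone marrow and spleen overlapped one another.

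The fold of Ifitm6 between tumor-bearing and naive mice was 0.783 in blood (0.751 to 0.817), 0.752 in bone marrow (0.670 to 0.842) and 0.882 in spleen (0.841 to 0.924), under 2-fold in each. It was under 1 in all 5 blood clusters, from 0.558 in cluster 2 (0.498 to 0.625) to 0.885 in cluster 4, and in 4 of 5 spleen clusters, where cluster 6 had 1.04 (0.901 to 1.21). In cluster 0 of bone marrow it was 0.696 (0.600 to 0.805). In cluster 2 of blood its level was 513 CPM in tumor-bearing and 918 CPM in naive mice. In blood, the fold of Ifitm1 was thus above 1 and that of Ifitm6 below 1 in the same 5 clusters.

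Tumor tissue had 1.98-fold less Ifitm6 than tumor-bearing blood (1.90 to 2.07), 1.97-fold less than tumor-bearing bone marrow (1.78 to 2.18) and 1.99-fold less than tumor-bearing spleen (1.91 to 2.07). These values lie just inside the 2-fold line, and it was past the line when mitochondrial, ribosomal-protein and haemoglobin genes were left out of the totals. Other alternatives moved it away from the line. It was 1.68-fold less against blood with cells thinned to 5000 UMIs, 1.65-fold against bone marrow with TMM scaling and 1.68-fold against spleen with DESeq2 scaling. Fewer cells had it in tumor tissue, 58.5% at 5000 UMIs, against 92.1% in tumor-bearing blood, 92.9% in tumor-bearing bone marrow and 91.0% in tumor-bearing spleen. The naive libraries lay between 94.5% and 95.3%.

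Among clusters drawn mostly from tumor tissue, the level of Ifitm6 differed. It was 82.7 CPM in cluster 11, 89.95 CPM in cluster 13 (from 6 UMIs), 132 CPM in cluster 3 and 175 CPM in cluster 8, against 435 to 752 CPM in clusters 17, 7, 5, 10 and 9. The 4 low clusters had the 4 highest summed levels of 9 macrophage markers, 16158, 9400, 8565 and 10173 CPM, whereas every other cluster lay between 1193 and 3807 CPM. The part of cluster make-up in the lower Ifitm6 of tumor tissue was not tested. Cluster 9, at 752 CPM, was within the 612 to 961 CPM of the clusters shared by blood, bone marrow and spleen. Clusters 12 and 16 had the highest Ifitm6, 914 and 961 CPM.

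Ifitm2, the close relative of Ifitm3, followed Ifitm1 in direction but with small differences. It was 2316 CPM in tumor tissue, 1806 CPM in tumor-bearing blood against 1542 CPM in naive blood, 1853 CPM in tumor-bearing bone marrow against 1532 CPM in naive bone marrow, and 1741 CPM in tumor-bearing spleen against 1677 CPM in naive spleen. The folds of tumor-bearing over naive were 1.17 (1.14 to 1.20) in blood, 1.21 (1.13 to 1.30) in bone marrow and 1.04 (1.01 to 1.07) in spleen, and tumor tissue was 1.25-fold to 1.33-fold the tumor-bearing libraries. Nearly all cells had it, between 98.6% and 100% at 5000 UMIs. The clusters ran from 1428 CPM in cluster 4 to 3306 CPM in cluster 17, with cluster 7 next at 3080 CPM. In blood cluster 0 it was 2175 CPM in tumor-bearing and 1631 CPM in naive mice, a fold of 1.33 (1.27 to 1.40), the largest of its folds within clusters.

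Ifitm3, the endosomal restriction factor, was the most abundant member everywhere. It was 6087 CPM in tumor tissue, 6186 CPM in tumor-bearing blood against 7038 CPM in naive blood, 6887 CPM in tumor-bearing bone marrow against 6734 CPM in naive bone marrow, and 6227 CPM in tumor-bearing spleen against 6895 CPM in naive spleen. The highest level was 1.16-fold the lowest. The folds of tumor-bearing over naive were 0.879 (0.867 to 0.891) in blood and 0.903 (0.889 to 0.917) in spleen, with every cluster compared in both tissues also below 1. In bone marrow the fold was 1.02 (0.987 to 1.06) and its interval spanned 1. Tumor tissue was at 0.984, 0.884 and 0.978 of tumor-bearing blood, bone marrow and spleen, and these directions flipped with TMM or DESeq2 scaling, to as much as 1.13, 1.05 and 1.16. Against blood and against spleen the direction held in 5 of 10 alternatives, since it also flipped with each cell weighed equally, with cells thinned to 5000 UMIs and without the 2% of cells with most UMIs, and against bone marrow it held in 8 of 10.

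Ifitm3 differed more between clusters than between libraries. Cluster 10, mostly from tumor tissue, had 10242 CPM (10092 to 10393) and cluster 16, mostly from naive blood, had 9621 CPM (9393 to 9853). Cluster 13 had 3073 CPM, cluster 11 had 3461 CPM and cluster 3 had 4278 CPM, all 3 among the clusters with the most macrophage marker RNA. Cluster 8, which shared those markers, had 7071 CPM. Within tumor tissue the lower and upper quartiles of thinned cells were 21 and 45 Ifitm3 UMIs, against 24 and 36 in tumor-bearing blood.

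**Figure D5:**
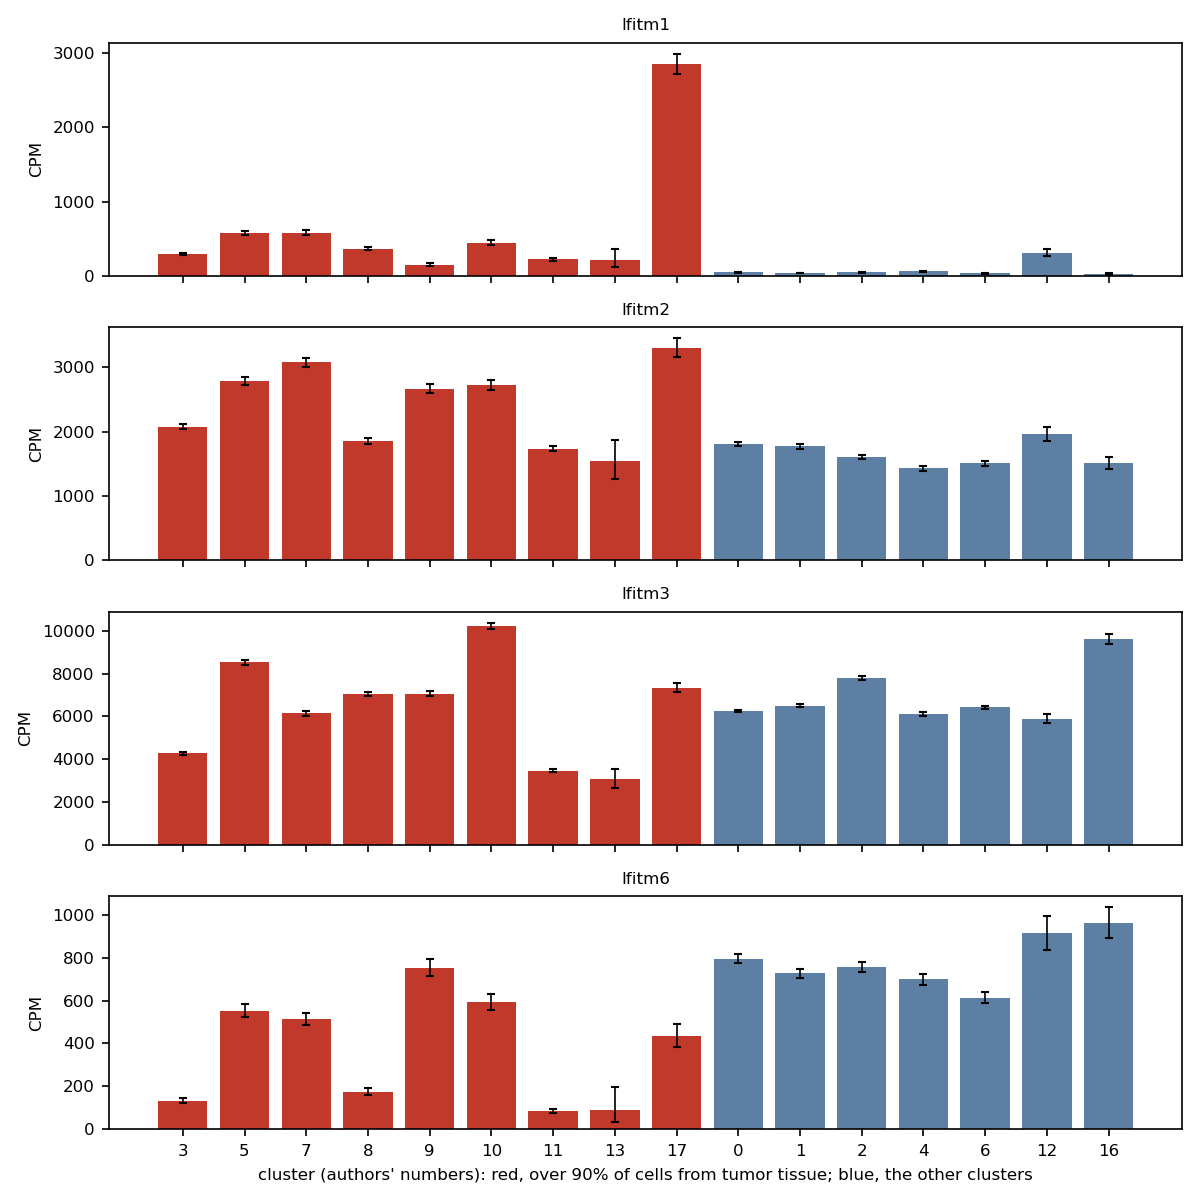
Level of each Ifitm gene (CPM, linear axes from 0) in the 16 clusters with counts, with clusters drawn over 90% from tumor tissue in red at left and the others in blue; error bars are exact 95% Poisson intervals of counting error. Ifitm1 peaks in cluster 17 at 2861 CPM, and Ifitm6 is lowest in clusters 11, 13, 3 and 8, between 82.7 and 175 CPM.

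Interferon-stimulated genes were set beside the family as lists drawn up with earlier results known. In blood, 0 of 28 measured type I interferon-stimulated genes were 2-fold or more higher in tumor-bearing mice and 1 was lower (Ifit3b, 9.73 CPM in tumor-bearing and 20.3 CPM in naive mice). Their median log2 ratio was -0.21, beside 0.01 over all measured genes. In spleen 0 of 25 passed in either direction, with a median of 0.13 beside 0.02. In bone marrow 3 of 26 were higher (Ifit1bl1, Ifit2 and Isg20), with a median of 0.11 beside 0.04. Of all measured genes, 0.566% in blood, 0.332% in spleen and 1.34% in bone marrow were 2-fold or more higher. Rsad2, an antiviral enzyme of this list, was 47.3 CPM in tumor-bearing and 75.6 CPM in naive blood.

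Of the interferon gamma-inducible genes, 0 of 12 passed 2-fold in blood, 2 of 11 were higher in bone marrow (Gbp2 and Cxcl10) and 2 of 13 in spleen (Gbp2 and Gbp5), with 0 lower in any tissue. Gbp2, a guanylate-binding protein that attacks intracellular pathogens, was 175 CPM in tumor-bearing and 60.4 CPM in naive spleen (fold 2.89, 2.53 to 3.32). The medians were -0.05 in blood, 0.36 in bone marrow and 0.29 in spleen, beside 0.01, 0.04 and 0.02 over all measured genes. Of all measured genes, 0.566% in blood, 1.34% in bone marrow and 0.332% in spleen were 2-fold or more higher. None of the 10 interferon receptor and signalling genes passed in any of the 3 tissues, and the largest fold in blood among those was 1.34 for the kinase Jak2.

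The list of genes tied to gp130 cytokines and STAT3 holds Lcn2 and Csf3r, which are also neutrophil markers here. In blood 3 of 10 were 2-fold or more higher, with a median of 0.29, beside 0.566% and a median of 0.01 over all measured genes. Lcn2, an iron-scavenging granule protein, was 134 CPM in tumor-bearing and 14.2 CPM in naive blood (fold 9.39, 7.80 to 11.4). Wfdc21 had a fold of 8.81 and Lrg1 of 7.34. In spleen 2 of 10 were higher, Wfdc21 (fold 3.15) and Lcn2 (fold 2.46), with a median of 0.29. Over all measured genes of spleen 0.332% were higher, with a median of 0.02. In bone marrow 0 of 8 passed, with a median of -0.02. Over all measured genes of bone marrow 3.23% passed in either direction, with a median of 0.04. The summed neutrophil markers given above were higher in tumor-bearing than in naive blood and spleen, and their part in these values was not tested.

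Many interferon genes were higher in tumor tissue. Against tumor-bearing blood, 13 of 28 type I genes and 8 of 17 interferon gamma genes were 2-fold or more higher and 0 lower, with medians of 0.84 and 0.81 beside -0.13 over all measured genes. Against tumor-bearing spleen these were 13 of 28 and 7 of 18, with 1 interferon gamma gene lower, and against tumor-bearing bone marrow 11 of 28 and 6 of 17. The medians were 0.87 and 0.57 against spleen, beside -0.15, and 0.72 and 0.45 against bone marrow, beside -0.17. Of all measured genes, 10.9% against blood, 10.7% against spleen and 12.2% against bone marrow were 2-fold or more higher. Rsad2 was 607 CPM in tumor tissue and 47.3 CPM in tumor-bearing blood. Cxcl9, a chemokine for T cells, was 204 CPM in tumor tissue and 3.09 CPM in tumor-bearing blood (fold 65.9, from 14 UMIs in blood). Of the STAT3 list, 2 of 11 were higher and 6 lower against blood (median -1.04), beside 10.9% and 9.44% of all measured genes. Lcn2 was 6.86 CPM in tumor tissue and 134 CPM in tumor-bearing blood. The 3 tumor comparisons share the tumor tissue library.

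On the list of genes whose proteins modify or accompany Ifitm proteins, RNA of the tetraspanins Cd9 and Cd81 was higher in tumor tissue. Cd9 was 248 CPM in tumor tissue and 52.8 CPM in tumor-bearing blood. Cd81 was 65.1 CPM in tumor tissue and 9.06 CPM in tumor-bearing blood. Against tumor-bearing blood 2 of 4 measured genes of this list were 2-fold or more higher, beside 10.9% of all measured genes. Against tumor-bearing spleen the folds were 8.44 for Cd9 and 4.26 for Cd81. Tag medians of these proteins in tumor tissue, on the log scale given below, lay near those of spleen. The CD9 tag was 4.23 in tumor tissue, 4.18 in tumor-bearing spleen and 3.88 in tumor-bearing blood. The CD81 tag was 4.49, 4.40 and 4.11 in the same order. Between tumor-bearing and naive mice 0 of 3 genes of this list passed 2-fold in blood, 0 of 4 in bone marrow and 0 of 3 in spleen. Of all measured genes, 0.698%, 3.23% and 0.387% passed in either direction, in the same order. Zdhhc20, which attaches palmitate to Ifitm3 in human cells, was 55.5 CPM in tumor-bearing and 60.3 CPM in naive blood.

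The family's other relatives were nearly silent. Of 9 further Ifitm and dispanin genes among those counted, 0 reached the minimum to be measured in any comparison. Ifitm5, a bone gene, had 92 UMIs in tumor tissue (4.41 CPM) and between 0 and 15 UMIs in each other library. Ifitm7 had 1 UMI in all, and Ifitm10 had 0.

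The genes whose levels ran closest to each member were ranked by Pearson correlation of log2 levels, as a description over points that share libraries and depth. Over 34 groups of cells of 1 cluster in 1 library and 7752 genes, those closest to Ifitm1 were Il1r2 (0.90), the decoy receptor for interleukin 1, Cox17, the interleukin gene Il1b (0.84), Igfbp6 and Kdm6b. Il1r2 was 91.5 CPM in tumor tissue, 9.73 CPM in tumor-bearing blood and 2.86 CPM in naive blood. Those closest to Ifitm2 were S100a11, Anxa2, Rnh1, Map2k3 and Actg1. Ifitm3 ran closest to the interferon-stimulated gene Ifi27l2a (0.90), the class I-like gene H2-T23, Capza2, Epsti1 and the proteasome subunit Psmb10. Among the 5 genes closest to Ifitm6 were Tmsb10 (0.92), Taldo1, Napsa and Tyrobp. Among the members, Ifitm1 and Ifitm2 had 0.71, Ifitm3 and Ifitm6 had 0.71, and Ifitm1 and Ifitm6 had -0.48.

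Over the 7 libraries alone, with 6198 genes ranked, Lcp1 (0.99), Atp6v1a, Hdc, Il4ra and Prdx2 stood closest to Ifitm1, and Naca, Eif3e and Lipa were among the 5 closest to Ifitm6. Atp6v1g1, Dpep2, Pdcd6, Myl12a and Ppa1 stood closest to Ifitm2, and Sh3bp5, Unc93b1, Kpna2, Arf5 and Wls closest to Ifitm3. Il4ra, the interleukin 4 receptor, was 116 CPM in tumor tissue, 53.1 CPM in tumor-bearing blood and 35.0 CPM in naive blood. Tumor tissue lay far below the other 6 points for Ifitm6, at 326 CPM with tumor-bearing bone marrow next at 643 CPM. For Ifitm1 it was the highest point at 428 CPM, and the other 6 were themselves spread from 92.2 to 11.0 CPM.

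In single cells of tumor tissue, thinned to 5000 UMIs, Ifitm3 and Ifitm6 had a Spearman rho of 0.46, Ifitm2 and Ifitm6 0.44, and Ifitm2 and Ifitm3 0.40 over 1727 cells. Ifitm1 had 0.23 with Ifitm2 and 0.10 with Ifitm6. These values pool all clusters of tumor tissue, and the part of cluster make-up in them was not tested. In the other libraries Ifitm3 and Ifitm6 had 0.02 to 0.23, Ifitm2 and Ifitm6 0.06 to 0.19, and Ifitm2 and Ifitm3 0.14 to 0.29. Both Ifitm1 and Ifitm6 were found in 26.6% of the thinned cells of tumor tissue, Ifitm1 alone in 15.8%, Ifitm6 alone in 31.9% and neither in 25.7%. If the 2 genes fell on cells independently, 24.8% would hold both. In tumor-bearing blood Ifitm1 without Ifitm6 was seen in 2.04% of cells, and in naive blood in 0.125%.

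Surface tags of 47 antibodies were a readout that the choice of members did not use, and only a few are given here. Of the myeloid antibodies only Ly-6C was named beforehand. Differences in the other tags given are therefore descriptions and no independent support. The CD16.2 tag, for an Fc receptor carried by non-classical monocytes, had a median of 5.08 in Ifitm1-positive and 4.42 in Ifitm1-negative thinned cells of tumor-bearing blood, and of 5.06 in positive and 4.10 in negative cells of naive blood, where the tag values are the natural log of 1 plus counts per 10000. In tumor-bearing spleen the medians were 4.83 in positive and 4.48 in negative cells, and in naive spleen 5.04 in positive and 4.24 in negative cells. In tumor tissue they were 4.69 in positive and 4.64 in negative cells. Positive cells numbered 46 in tumor-bearing blood, 38 in naive blood, 112 in tumor-bearing spleen, 22 in naive spleen and 733 in tumor tissue. Within cluster 4 of tumor-bearing spleen the positive cells had 5.25 and the negative cells 4.97, with an SD of 0.79 over its cells. In the same library the medians were 5.22 in positive and 4.60 in negative cells of cluster 2, and 4.70 in positive and 4.48 in negative cells of cluster 1. In tumor tissue cluster 3 ran the other way, with 4.75 in positive and 4.86 in negative cells, while positive cells were 0.09 to 0.22 higher in the other 6 clusters with at least 20 cells of each kind. In tumor-bearing spleen, the Ly-6C tag was 7.89 in positive and 8.05 in negative cells of cluster 2. It was 7.73 and 7.71 in cluster 4, and 7.996 and 8.003 in cluster 1. In the same order, CD11b was 6.99 and 6.67 in cluster 2, 7.27 and 7.11 in cluster 4, and 6.88 and 6.89 in cluster 1. Cluster 4 held 21.4% of the positive cells of tumor-bearing spleen, and the part of cluster make-up in the CD16.2 difference was not tested.

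Cells of tumor tissue with Ifitm6 carried more Ly-6C tag, a median of 7.72 against 7.15 in cells without it, and less CD16-32 tag, 5.69 against 6.26. The SD over all cells was 0.59 for each tag. Ly-6C marks classical monocytes and CD16-32 is an Fc receptor pair that macrophages carry in plenty, and the clusters with least Ifitm6 were those with most macrophage marker RNA. Among thinned cells without Ifitm1, median Ly-6C was 7.03 in cluster 3, 7.26 in cluster 8 and 6.64 in cluster 11. It was 7.83, 7.84, 7.92 and 7.73 in clusters 5, 7, 9 and 10. The Ifitm6 medians pool all clusters of tumor tissue, and the part of cluster make-up in them was not tested.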

How the data were processed

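Per the labels' protocols, RNA and antibody tag libraries were made with Chromium 3′ chemistry. Cell Ranger and mm10 come from the submitters' processing notes. The counting annotation is not given in the sources used here. UMI counts of every cell were deposited, as were tag values that equal the natural log of 1 plus counts per 10000, and metadata with each cell's library, cluster and mitochondrial share, a fraction per the file headers. Of 4527 cells in the metadata, 237 had no counts and were not used. No further cell filter and no doublet caller was applied, and the 2% of cells with most UMIs were left out as an alternative.

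The members and lists were chosen with earlier results of these data known. Counts were summed over cells of a library or cluster and scaled to CPM. The minimum for a gene was 30 UMIs over both libraries and 20 CPM in one, and a call needed 2-fold. Each group being 1 library, nothing was tested. Intervals (exact Poisson, conditional binomial or Clopper-Pearson, and joined Wilson intervals for differences in share, 95%) cover counting error only. UMIs of 1 cell are not independent. List medians used a pseudocount of 1 CPM. From each list, up to 3 measured genes with the largest absolute log2 ratio in blood and in spleen were to be named, and any further list gene was picked with its values in view. The 5 genes closest to each member by correlation were named, except some that are not reported here. Shares at equal depth came from cells thinned to 5000 UMIs. The calling step was tested on simulated library sums, which hold no single cells, so the cell-level steps were not tested that way. Alternative scalings used edgeR 4.0.16 (TMM) and DESeq2 1.42.0, and other steps Python 3.11.15 with scipy 1.17.1.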

Additional observations from a re-analysis of the deposited data

Results flagged for a closer look

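Ifitm2 differed in direction between clusters of the spleen. Its fold of tumor-bearing over naive mice was 1.26 in cluster 0 (2011 CPM in tumor-bearing and 1595 CPM in naive mice) and 0.873 in cluster 2 (1588 CPM in tumor-bearing and 1820 CPM in naive mice). The intervals were 1.18 to 1.34 and 0.815 to 0.934, on opposite sides of 1. What drew attention is that the 2 clusters of the same libraries moved in opposite ways. The difference was not tested, since each state is 1 library, and Ifitm2 is also the member with the most shared 3′ sequence.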

How the results depend on the processing

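No paired analysis was possible because each group is 1 library and no result comes from a test. The Ifitm1 fold kept its direction and stayed past 2-fold under all 11 alternatives in blood (5.21 to 8.02) and in spleen (2.12 to 3.69), and under all 10 in each tumor tissue comparison. For tumor-bearing over naive bone marrow it was under 2-fold in 2 of 11. It turned to 0.949 in the largest cluster only, where 0 members were called higher, and it was 1.80 without the 1 cell with most UMIs, where again 0 were called. Leaving out that cell, levels without the cell with most Ifitm1, and leaving cluster 17 out of tumor tissue, were chosen after seeing the data. Ifitm6 became a member 2-fold lower in tumor tissue, a count of 1, against tumor-bearing blood, bone marrow and spleen when mitochondrial, ribosomal-protein and haemoglobin genes were left out of totals, and against blood and spleen without cluster 17. Its fold there ranged from 0.473 to 0.605.

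Shares of cells with a UMI moved with depth. For Ifitm1 the tumor-bearing minus naive difference at 5000 UMIs was 8.67 points in blood, 16.7 at own depth, and 14.4 points in spleen, 20.9 at own depth and 8.23 at 2000 UMIs. Tumor tissue minus tumor-bearing blood was 29.0 points and 18.2 at 2000, and tumor tissue minus tumor-bearing spleen 22.6 and 17.7 at 2000. For Ifitm6, tumor-bearing minus naive blood was -3.13 points and -10.4 at 2000, tumor tissue minus tumor-bearing blood was -33.6 and -23.9 at 2000, and tumor tissue minus tumor-bearing spleen was -32.4, -28.7 at own depth and -28.3 at 2000.

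With no minimum of UMIs or CPM, genes past 2-fold in either direction numbered 1137 in blood, 1475 in bone marrow and 935 in spleen, and 3630, 3219 and 4070 for tumor tissue against tumor-bearing blood, bone marrow and spleen, against 37, 178, 21, 1147, 1396 and 1302 with the minimum. List genes higher then numbered 6 in blood, 12 in bone marrow and 9 in spleen, and lower ones 2 in blood and 1 in bone marrow. Weighing every cell equally left 22 of 28 library levels and 54 of 64 cluster levels within their counting intervals, with a largest shift of 1.41-fold. Tumor-bearing bone marrow, with 57 cells and 26 Ifitm1 UMIs, limits every statement on that tissue.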
